A study of Mus musculus with 2 samples.

Results

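Bone morphogenetic protein (BMP) ligands, BMP receptors and the Id genes were followed across cell types of the mouse cerebral cortex. The set held 10 of the 55450 genes in the count tables, chosen by name: the ligands *Bmp2*, *Bmp4* and *Bmp7*, the receptors *Bmpr1a*, *Bmpr1b* and *Bmpr2*, and *Id1*, *Id2*, *Id3* and *Id4*. The data were scRNA-seq counts of unique molecular identifiers (UMIs), 1 UMI standing for 1 captured mRNA molecule, from 2 libraries: 1 control and 1 of cerebral white matter injury (WMI). By the labels, both came from C57BL/6 mice 2 weeks old, and the cortex was collected on postnatal day 14 on the ligated side of WMI mice and on the same side of control mice. In the labels, ligation of the right common carotid artery on postnatal day 7 with 1 h of hypoxia stands as the treatment text of both groups, with no separate account of the control mice. The methods of the study give other ages, and describe trypsin-dissociated cells where the labels describe filtered nuclei. They also state replicates for each group, where the data here held 1 library of each. Any animals pooled in a library are not told apart in these tables, so that a library is 1 sample of a group and no test between the groups was possible. Every interval below is a 95% interval for counting error only, and says nothing about the spread between animals.

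BMP ligands are secreted dimers that bind a complex of type 1 receptors (*Bmpr1a*, *Bmpr1b*) and a type 2 receptor (*Bmpr2*). The active type 1 receptor phosphorylates Smad1, Smad5 and Smad9, which enter the nucleus with Smad4 and switch on targets, among them the Id genes. Id proteins lack a DNA-binding region and hold basic helix-loop-helix (bHLH) factors such as E proteins away from DNA. In the oligodendrocyte (OL) lineage, BMP signals are known to hold back OL precursor cells (OPCs) and to favour astrocyte fates, and antagonists such as noggin and chordin bind the ligands outside the cell.

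Promoter sequence upstream of the start was available in RefSeq (GRCm38.p6) for 7 of the 10 genes, and for 3 of them at least 1 window of 250 bases met no annotated exon. Those of *Bmp4* and *Id4* are shown as a window without and one with the motif searched, for a ligand and an Id gene described next. Both are printed 5′ to 3′ on the gene's strand and end 1 base before a RefSeq transcript start, which for *Id4* lies upstream of the gene start that the annotation gives below, with the letters GGCGCC, a motif known from the BMP-responsive part of Id promoters, in capitals. The window of *Bmp4* is chr14:46390670-46390919 on the minus strand, and that of *Id4* is chr13:48260866-48261115 on the plus strand.
Bmp4: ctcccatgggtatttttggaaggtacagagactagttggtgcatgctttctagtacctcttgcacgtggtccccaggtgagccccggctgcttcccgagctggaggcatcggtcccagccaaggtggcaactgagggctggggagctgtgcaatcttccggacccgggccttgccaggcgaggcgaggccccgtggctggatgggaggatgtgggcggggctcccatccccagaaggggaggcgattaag
Id4: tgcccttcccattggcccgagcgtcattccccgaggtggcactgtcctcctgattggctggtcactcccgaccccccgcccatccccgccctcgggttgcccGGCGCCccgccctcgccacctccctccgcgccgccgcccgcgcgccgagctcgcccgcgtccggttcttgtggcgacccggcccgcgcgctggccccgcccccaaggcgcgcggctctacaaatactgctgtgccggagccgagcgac
*Id4* held the motif once, with its first base at position -148 counted back from that transcript start, and *Bmp4* did not hold it. Of the 7 genes with a sequence, 4 held it in at least 1 window (*Bmpr1a*, *Bmpr2*, *Id2* and *Id4*), and *Bmp4*, *Bmpr1b* and *Id3* in none. The motif reads the same on both strands and was found in 9.59% of 32851 such windows, and in 26.1% of the 9178 windows with at least 60% G and C. With 75.6% G and C in the *Id4* window, a match describes these letters only.

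The control library held 66470806 UMIs in 10288 barcodes and the WMI library 60568639 in 8354, of which 8755 and 7571 cells were kept, with medians of 4333 and 5028 UMIs per cell, and 36 barcodes occurred in both libraries. The libraries stood apart in several ways. An *Xist* UMI was seen in 5 control cells (0.0571%) against 4796 WMI cells (63.3%). A UMI of a Y-linked gene was seen in 74.5% of control and 59.4% of WMI cells, so some WMI cells held both. The WMI library thus held cells of both sexes and the control library nearly only male cells. Sex and injury cannot be told apart over all cells. Cells with a Y-linked and no *Xist* UMI are called male below, and the part of free RNA in that call was not tested. The median mitochondrial share was 0.0611% in control and 0.448% in WMI cells. Cells were named from marker lists after clustering without the BMP pathway genes, and names end in "-like". Of 32 clusters 2 stayed unnamed (61 control and 1079 WMI cells), and 10 broad classes had at least 50 cells in both libraries. Striatal projection neuron-like cells were 3 in control and 143 in WMI, and neuroblast-like cells 62 and 126. How far the tissue taken differed between the libraries was not tested. The classes that matter most here were OPC-like (322 control and 498 WMI cells), pre-OL-like, the premyelinating stage (153 and 436), mature OL-like (89 and 51) and astrocyte-like cells (493 and 594), each of which met 9 or 10 of its 10 listed markers. Levels are counts per 1e6 UMIs (CPM), summed over the cells of a class in 1 library.

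**Figure D1:**
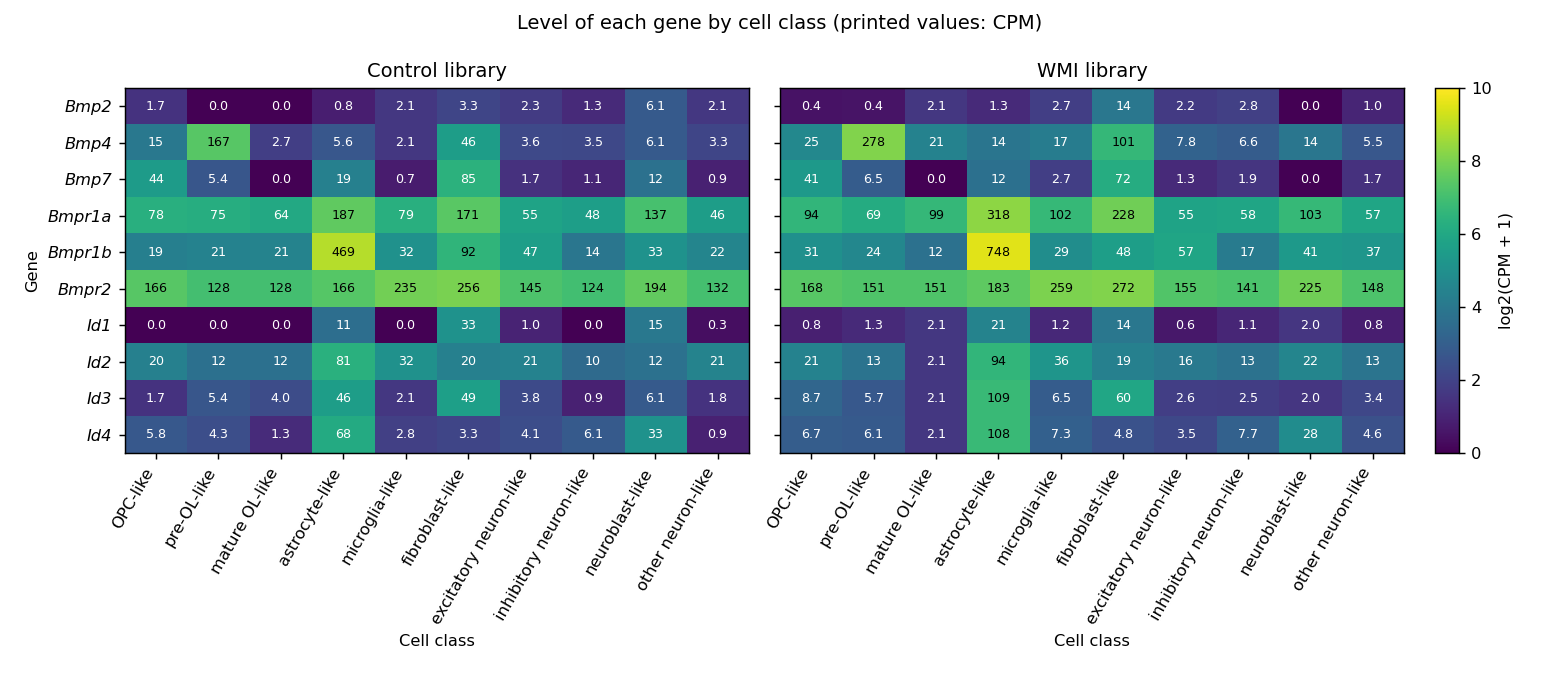
Level of each of the 10 genes (rows) in the 10 broad cell classes (columns) of the control library (left) and the WMI library (right). Colour is log2(CPM + 1) and the printed values are CPM; *Bmp4* stood out in pre-OL-like cells (167 and 278 CPM) and *Bmpr1b* in astrocyte-like cells (469 and 748 CPM).

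*Bmp4* (ENSMUSG00000021835, chromosome 14, 46383520 to 46390669, minus strand, GRCm38), a ligand used widely in development, was a gene of pre-OL-like cells in both libraries. In the control library the pre-OL-like level was 167 CPM (142 to 195; 154 UMIs), followed by fibroblast-like cells with 46.0 CPM (25.1 to 77.1) and OPC-like cells with 15 CPM (9.77 to 21.9). In the WMI library the same order stood, with 278 CPM (257 to 301; 639 UMIs), 101 CPM (72.8 to 137) and 24.6 CPM (18.7 to 31.7). The first and second classes did not overlap in either library. Pre-OL-like cells were 1.75% of control cells and gave 39.3% of all *Bmp4* UMIs, and they were 5.76% of WMI cells and gave 52.9%.

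Along the OL lineage *Bmp4* was high at 1 stage. The pre-OL-like level stood above the OPC-like level by a log2 ratio of 3.48 (2.87 to 4.14) in control and of 3.50 (3.11 to 3.91) in WMI, an 11.2-fold and an 11.3-fold difference. From pre-OL-like to mature OL-like cells the log2 ratio was -5.97 (-9.03 to -4.09) in control, on 2 UMIs in mature cells, and -3.75 (-4.82 to -2.87) in WMI, on 10 UMIs. At a clustering resolution of 1.6, where classes do not hold exactly the same cells, 2 clusters were named pre-OL-like, a larger one (100 control and 331 WMI cells) and a smaller one rich in *Mbp*, the gene of myelin basic protein (54 and 111 cells; *Mbp* 4198 and 3706 CPM, against 873 and 1049 CPM). In control, *Bmp4* was at 211 CPM in the larger and 99.1 CPM in the *Mbp*-rich cluster, and in WMI at 317 and 187 CPM. *Bmp4* was therefore lower in the *Mbp*-rich cells of each library.

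In WMI pre-OL-like cells *Bmp4* was 1.67-fold as high as in control (1.40 to 2.00), and 10.4% of the genes measured there had a higher ratio. That ratio is over cells of both sexes, so sex and injury cannot be told apart in it. The ratio in male cells alone (128 control and 115 WMI pre-OL-like cells) is not given here. Within the pre-OL-like clusters taken separately, the log2 ratio was 0.59 (0.30 to 0.89) in the larger and 0.92 (0.38 to 1.48) in the *Mbp*-rich one. Per cell, 54.9% of control and 64.2% of WMI pre-OL-like cells held a *Bmp4* UMI at median depths of 5358 and 4641 UMIs. With every cell thinned to 1000 UMIs, the shares were 15.6% (10.3 to 22.4) and 23.5% (19.7 to 27.9), and these intervals overlapped. Microglia-like cells, which should lack *Bmp4*, had thinned shares of 0.24% and 1.86%, at median depths of 3132 and 3126 UMIs. In pre-OL-like cells the 10 microglia markers were all detected in both libraries and summed to 147 CPM in control and 503 CPM in WMI. The macrophage list went from 5 of 10 detected markers and 6.5 CPM to 8 and 48.3 CPM, with *Cbr2* and *Lyve1* at 0 in both, and the mature OL list from 8 of 10 and 2051 CPM to 9 and 1526 CPM, with *Ermn* at 0 in both. The pre-OL list itself summed to 13260 and 12858 CPM. The list for any neuron, with all 10 markers detected, summed to more, 17672 CPM in control and 16137 CPM in WMI. The part of the other lists in the *Bmp4* values was not tested.

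*Bmp4* UMIs also stood higher in WMI cells of classes with little of the gene. Microglia-like cells went from 2.06 CPM (3 UMIs) to 17.2 CPM (71 UMIs), upper-layer excitatory neuron-like cells from 1.13 to 6.04 CPM, and astrocyte-like cells from 5.57 CPM (14 UMIs) to 13.7 CPM (43 UMIs). These levels lay far under that of pre-OL-like cells in the same library. The 10 pre-OL markers, all detected, summed to 831 and 1052 CPM in astrocyte-like cells. Of these, *Bcas1* and *Enpp6* were also measured in the larger astrocyte-like cluster at a resolution of 1.6, described below. *Bcas1* stood there at 23.5 and 70.3 CPM, *Enpp6* at 13.4 and 33.1 CPM and *Bmp4* at 5.52 and 12.5 CPM. The part of free RNA in the *Bmp4* values of these classes was not tested.

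**Figure D2:**
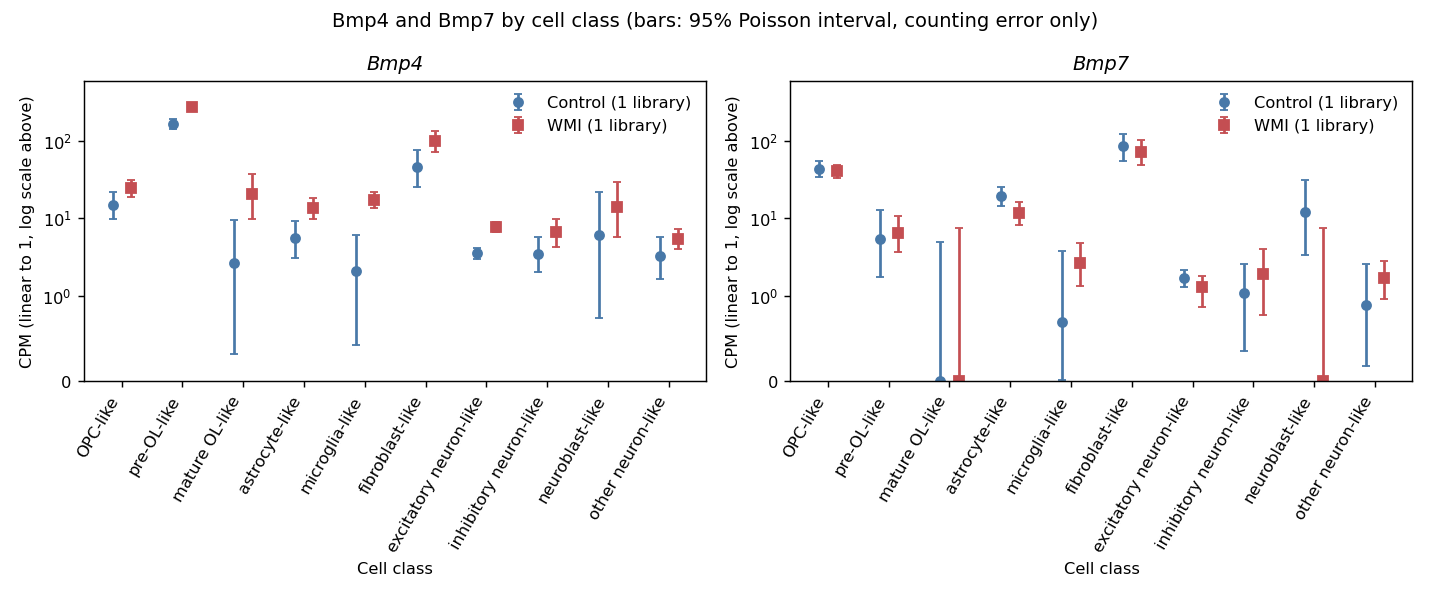
*Bmp4* (left) and *Bmp7* (right) in CPM on an axis that is linear to 1 and logarithmic above, by cell class, with blue circles for the control library, red squares for the WMI library and bars for 95% Poisson intervals. *Bmp4* peaked in pre-OL-like cells at 167 and 278 CPM, whereas *Bmp7* was at 43.7 and 40.8 CPM in OPC-like cells and at 5.42 and 6.53 CPM in pre-OL-like cells.

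*Bmp7* (ENSMUSG00000008999, chromosome 2, 172868012 to 172940321, minus strand), a ligand of meninges and of neural precursors, had the opposite pattern to *Bmp4* in the first steps of the lineage. Its level was 43.7 CPM (34.4 to 54.7; 76 UMIs) in control and 40.8 CPM (33.1 to 49.8; 98 UMIs) in WMI OPC-like cells, and 5.42 CPM (5 UMIs) and 6.53 CPM (15 UMIs) in pre-OL-like cells. The log2 ratio of pre-OL-like over OPC-like cells was -3.01 (-4.68 to -1.73) in control and -2.64 (-3.54 to -1.85) in WMI. No *Bmp7* UMI was seen in mature OL-like cells of either library. Fibroblast-like cells had the highest level, 85.4 CPM (55.8 to 125) in control and 72.2 CPM (48.7 to 103) in WMI, and in WMI this interval overlapped that of OPC-like cells at its edge. OPC-like cells, 3.68% and 6.58% of all cells, gave 31.9% and 38.4% of all *Bmp7* UMIs.

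*Bmp2* (ENSMUSG00000027358, chromosome 2, 133552159 to 133562885, plus strand), the closest relative of *Bmp4*, was sparse, with 120 UMIs in all control cells (2.09 CPM) and 110 in all WMI cells (2.05 CPM). Its highest class rested on 2 UMIs in control and 6 in WMI, so its order over the classes was not detectable at this depth. It reached 20 UMIs over both libraries in excitatory neuron-like cells, with 2.34 and 2.23 CPM and a fold of 0.952 (0.669 to 1.34).

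*Bmpr1b* (ENSMUSG00000052430, chromosome 3, 141837136 to 142169425, minus strand) was the receptor with the most uneven distribution. Astrocyte-like cells stood first with 469 CPM (443 to 497) in control and 748 CPM (718 to 779) in WMI, and gave 34.3% and 50.6% of all its UMIs. The second class in both libraries was layer 5 excitatory neuron-like cells with 102 CPM (88.9 to 117) and 107 CPM (93.1 to 122), so that astrocyte-like cells exceeded it 4.58-fold and 7.01-fold. OPC-like, pre-OL-like and mature OL-like cells ranged between 12.4 and 31.2 CPM over both libraries.

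*Bmpr1a* (ENSMUSG00000021796, chromosome 14, 34410734 to 34503341, minus strand), the other type 1 receptor, was found in every class. Astrocyte-like cells stood first with 187 CPM (171 to 205) in control and 318 CPM (298 to 338) in WMI, ahead of fibroblast-like cells with 171 CPM (128 to 224) and 228 CPM (185 to 279). The first and second classes overlapped in control and not in WMI. *Bmpr2* (ENSMUSG00000067336, chromosome 1, 59763400 to 59879014, plus strand) was spread most evenly, from 122 CPM in the lowest to 256 CPM in the highest of 16 finer classes in control and from 129 to 272 CPM in WMI. Fibroblast-like and microglia-like cells led in both libraries with overlapping intervals. Endothelial-like cells, a class of 20 control and 15 WMI cells left out of that order, had 494 CPM of *Bmpr2* in each library, with intervals of 348 to 680 and 338 to 698.

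The 4 Id genes shared astrocyte-like cells and differed elsewhere. *Id2* (ENSMUSG00000020644, chromosome 12, 25093799 to 25097140, minus strand) was at 81.1 CPM (70.4 to 93.1) in control and 94.4 CPM (84.0 to 106) in WMI astrocyte-like cells, above microglia-like cells with 32.3 and 36.1 CPM. *Id4* (ENSMUSG00000021379, chromosome 13, 48261228 to 48266026, plus strand) was at 68.0 CPM (58.2 to 79.0) and 108 CPM (96.9 to 120) in astrocyte-like cells and came second in neuroblast-like cells with 33.4 and 28.4 CPM. The first and second classes of *Id4* overlapped in control, on 11 neuroblast UMIs, and not in WMI.

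*Id3* (ENSMUSG00000007872, chromosome 4, 136143497 to 136145755, plus strand) was shared between fibroblast-like cells (49.3 CPM in control and 60.1 in WMI) and astrocyte-like cells (46.1 and 109 CPM). Their order turned between the libraries, and the intervals overlapped in control only. *Id1* (ENSMUSG00000042745, chromosome 2, 152736251 to 152737410, plus strand) had 93 UMIs in all control cells and 140 in all WMI cells. Its levels were 32.8 and 14.4 CPM in fibroblast-like cells (10 and 6 UMIs), 11.1 and 21 CPM in astrocyte-like cells (28 and 66 UMIs) and 93.4 and 46.3 CPM in the few endothelial-like cells (7 and 3 UMIs). *Id1* was near 0 in precursors and premyelinating cells, with 0 control UMIs in each class, which allows up to 1.73 CPM in OPC-like and 3.25 CPM in pre-OL-like cells, and with 2 and 3 WMI UMIs.

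Over the 10 broad classes, 7 of the 10 genes had their highest level in the same class in both libraries. The exceptions were *Bmp2*, *Id1* and *Id3*. Annotated genes overlap some members: *Gm15222*, on the other strand of *Bmp4*, had 32 control and 50 WMI UMIs, *A330033J07Rik* at *Id4* had 35 and 56, and *Gm38125*, on the strand of *Bmpr2*, had 225 and 271. How reads in the overlaps were assigned is not given in the sources used here.

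The comparison of WMI with control asked which of these genes differed within a class. A gene counted as measured in a class with at least 20 UMIs over both libraries and as higher or lower at 1.5-fold. In astrocyte-like cells 6 of 9 measured genes were higher in WMI (*Bmp4*, *Bmpr1a*, *Bmpr1b*, *Id1*, *Id3* and *Id4*) and 1 was lower (*Bmp7*), where 18.9% of all 13756 genes measured there were higher and 8.24% were lower. An alternative chosen after seeing the data gave the 2 astrocyte-like clusters described below equal weight. Of the 6 higher genes, *Bmp4* and *Id3* alone then stayed at 1.5-fold. *Bmpr1a* (log2 ratio 0.56), *Bmpr1b* (0.51), *Id1* (0.42) and *Id4* (0.26) did not. In male cells alone the log2 ratio of *Bmp4* was -0.04, with no interval computed. In OPC-like cells 3 of 8 were higher (*Bmp4*, *Bmpr1b* and *Id3*) and 0 lower, against 12% and 7.34% of all genes. In pre-OL-like cells *Bmp4* alone of 6 was higher and 0 were lower, against 14.4% and 9.40%. The median log2 ratio of the measured members was 0.67 in astrocyte-like, 0.24 in OPC-like and 0.23 in pre-OL-like cells, and that of all genes was 0.12, 0.05 and 0.05.

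**Figure D3:**
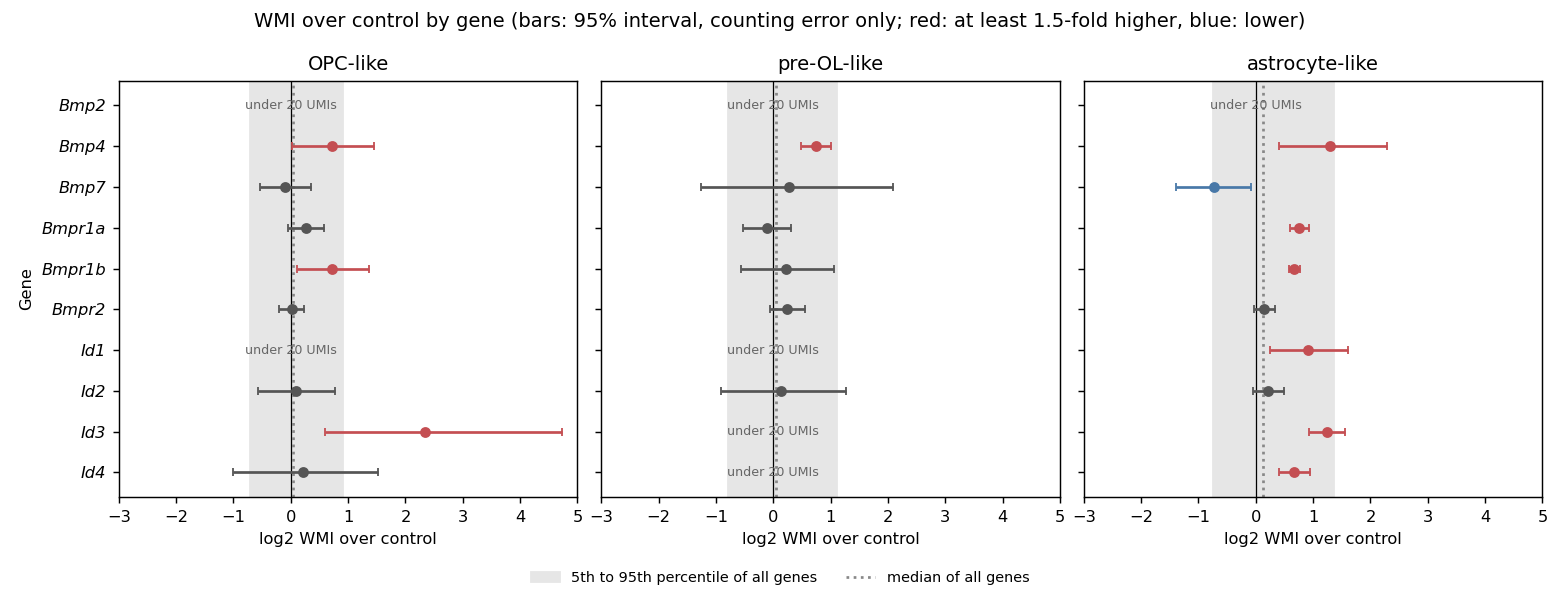
log2 ratio of WMI over control for each gene in OPC-like, pre-OL-like and astrocyte-like cells, with bars for 95% counting intervals, grey bands from the 5th to the 95th percentile of all genes and dotted lines at their median. Red points are at least 1.5-fold higher in WMI and blue points lower; 6 of the 9 measured genes are red in astrocyte-like cells, and all 6 lie inside the grey band.

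Among the receptors in astrocyte-like cells, *Bmpr1a* was 1.70-fold (1.52 to 1.90) and *Bmpr1b* 1.6-fold (1.49 to 1.71) as high in WMI, and *Bmpr2* 1.11-fold (0.973 to 1.26). Among the Id genes, *Id3* stood at 46.1 and 109 CPM (2.36-fold, 1.90 to 2.94), *Id1* at 11.1 and 21 CPM (1.88-fold, 1.19 to 3.05), *Id4* at 68.0 and 108 CPM (1.59-fold, 1.32 to 1.92) and *Id2* at 81.1 and 94.4 CPM (1.16-fold, 0.970 to 1.40). The intervals of *Bmpr2* and *Id2* therefore included no difference, whereas those of the other 5 receptors and Id genes did not. Among all genes measured, 6.08% had a higher ratio than *Id3* and 16.3% a higher ratio than *Id4*. *Bmp7* stood at 19.5 CPM (49 UMIs) in control and 11.8 CPM (37 UMIs) in WMI, a fold of 0.604 (0.383 to 0.944).

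With cells of no *Xist* UMI and a UMI of a Y-linked gene alone (409 control and 147 WMI astrocyte-like cells), the log2 ratio was 1.32 for *Id3*, 0.86 for *Id1*, 0.79 for *Id4*, 0.97 for *Bmpr1a* and 0.74 for *Bmpr1b*. For *Bmp4* it was -0.04 there, against 1.30 in all astrocyte-like cells, which held 14 control and 43 WMI *Bmp4* UMIs. For *Bmp7* it was -0.84 in male cells. No interval was computed for the ratios of male cells, so the value of *Bmp4* does not show that a difference was absent.

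Some of the shares of cells in which the genes were seen also differed between the libraries. After thinning to 1000 UMIs, astrocyte-like cells with a *Bmpr1b* UMI were 34.4% (30.3 to 38.9) in control and 45.3% (41.2 to 49.4) in WMI, and those with a *Bmpr1a* UMI 16.4% (13.3 to 20.0) and 24.3% (21 to 28.1). *Id3* was in 4.73% (2.98 to 6.92) and 9.56% (7.35 to 12.3), against 0.736% and 0.322% of excitatory neuron-like cells, which should lack it and had median depths of 3416 and 8928 UMIs. These were the 3 pairs of a gene and a class, among OPC-like, pre-OL-like and astrocyte-like cells, with intervals that did not overlap. The intervals of *Id1*, *Id4* and *Bmp4*, also higher by level in astrocyte-like cells, overlapped. How many of all genes had intervals apart was not measured, so the count of 3 cannot be set against them. The share of *Bmpr1b* in microglia-like cells, a class that should hold little of it, was 3.28% and 3.15%, and no class lacked *Bmpr1a*. By level, *Id3* stood at 2.06 and 6.54 CPM in microglia-like cells (3 and 27 UMIs) and at 3.80 and 2.60 CPM in excitatory neuron-like cells. The excitatory neuron-like class held clusters mostly of control cells, described below. *Id1* was in 1.11% and 1.89% of astrocyte-like cells, against 0.204% and 0.0839% of excitatory neuron-like cells. Without thinning, 18.7% of control and 34.5% of WMI astrocyte-like cells held an *Id3* UMI at median depths of 4787 and 4834.5 UMIs, and 77.1% and 84.5% a *Bmpr1b* UMI. No astrocyte-like cell held more than 5 *Id3* UMIs, and the 10 cells with most gave 20.7% of them in control and 12.3% in WMI.

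At a resolution of 1.6, 2 clusters were named astrocyte-like, and the Id genes are given in each. The larger (416 control and 361 WMI cells) was led by *Unc13c*, *Trpm3* and *Grin2c*, and the smaller (76 and 233 cells) by *Tshr*, *Sulf1*, *A2m* and *Gfap*, the gene of the astrocyte filament. These leading genes were taken over both libraries together. In the smaller cluster *A2m* had 0 UMIs in control and 464 in WMI cells, so its cells were not alike in the libraries. In the larger cluster *Id3* stood at 34.1 CPM (74 UMIs) in control and 101 CPM (202 UMIs) in WMI, *Id1* at 6.45 and 16.6 CPM (14 and 33 UMIs) and *Id4* at 53.4 and 78.3 CPM (116 and 156 UMIs). Their log2 ratios were 1.57 (1.18 to 1.98), 1.36 (0.42 to 2.38) and 0.55 (0.20 to 0.91). In the smaller cluster *Id3* stood at 124 and 122 CPM, *Id1* at 41.4 and 28.6 CPM and *Id4* at 162 and 160 CPM, with log2 ratios of -0.03 (-0.54 to 0.50), -0.53 (-1.47 to 0.49) and -0.03 (-0.47 to 0.44). All 3 genes were thus higher in the smaller than in the larger cluster of the control library. Between the clusters the intervals of the WMI ratio lay apart for *Id3* and overlapped for *Id1* and *Id4*, and the difference between the clusters was not tested.

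*Id2* stood at 81.5 and 90.8 CPM in the larger and at 79.8 and 101 CPM in the smaller cluster. *Bmpr1b* had a log2 ratio of 0.83 (0.72 to 0.95) in the larger and 0.18 (-0.05 to 0.42) in the smaller cluster, while *Bmpr1a* was higher in WMI in both, by 0.62 (0.42 to 0.81) and 0.51 (0.20 to 0.84). *Bmp7* was at 21.2 and 17.1 CPM in the larger cluster (log2 ratio -0.31, -1.0 to 0.36) and at 3 UMIs in each library in the smaller, so that no difference of *Bmp7* was detectable within the clusters at this depth. The smaller cluster was a larger part of the astrocyte-like cells in the WMI than in the control library. *Gfap* stood at 35.0 and 411 CPM in the larger and at 245 and 1371 CPM in the smaller cluster.

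**Figure D4:**
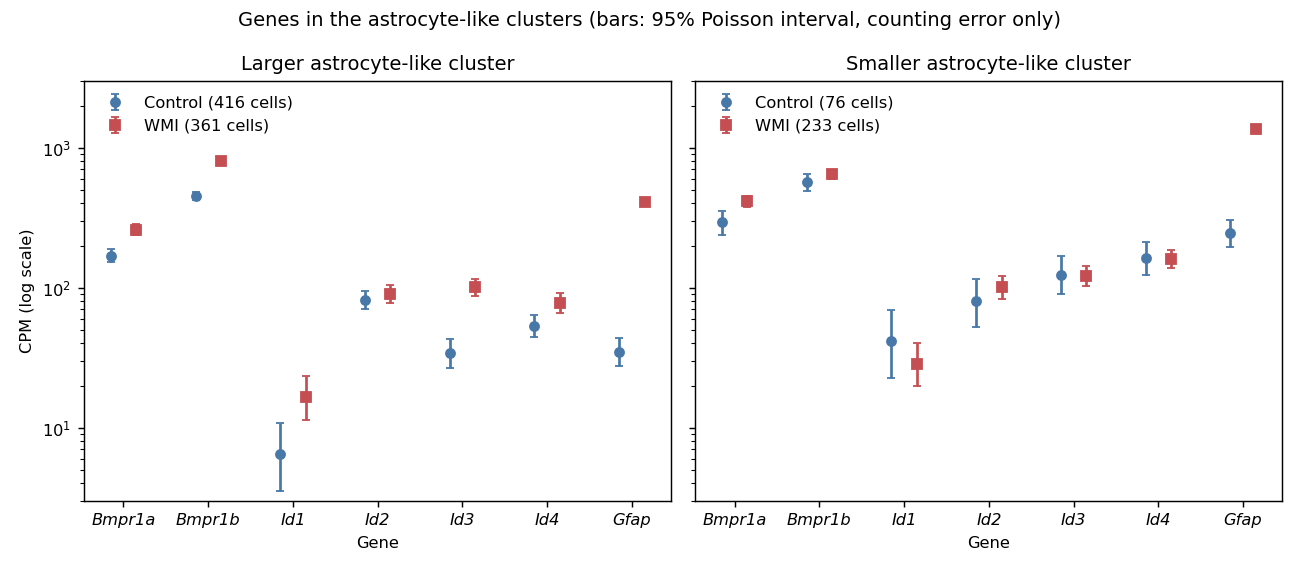
Receptor and Id gene levels, with *Gfap*, in the larger (left) and smaller (right) astrocyte-like cluster in CPM on a log axis, with blue circles for control, red squares for WMI and bars for 95% Poisson intervals. *Id3* and *Id1* differ between the libraries in the larger cluster (*Id3* 34.1 and 101 CPM) and overlap in the smaller (*Id3* 124 and 122 CPM).

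Markers of other cell types were measured beside these values in astrocyte-like cells. The 10 listed microglia markers were all detected in both libraries and summed to 171 CPM in control and 518 CPM in WMI. The macrophage list went from 4 of 10 detected markers and 3.58 CPM to 9 and 42 CPM, with *Clec10a* at 0 in both. The ependymal list went from 8 of 10 and 13.5 CPM to 10 and 88.1 CPM, the endothelial list from 9 of 10 and 13.5 CPM to 8 and 14.3 CPM, and the fibroblast list from 8 of 10 and 75.6 CPM to 8 and 67.4 CPM, with *Lum* and *Slc6a13* at 0 in both. The list for any neuron, with all 10 markers detected, summed to 13234 CPM in control and 11830 CPM in WMI. The part of these lists in the values of the Id genes was not tested. The astrocyte list itself summed to 18988 CPM in control and 13139 CPM in WMI.

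In OPC-like cells, the higher genes rested on few UMIs. *Bmp4* had 26 and 59 UMIs (1.64-fold, 1.02 to 2.72), *Bmpr1b* 33 and 75 (1.65-fold, 1.08 to 2.56) and *Id3* 3 and 21, a ratio of 5.07 (1.51 to 26.6). In male cells alone (261 control and 130 WMI cells) the log2 ratio of *Bmpr1b* was 0.05, with no interval computed. The ratios of *Bmp4* and *Id3* given here are over cells of both sexes, and those in male cells alone are not given. Fewer genes passed 1.5-fold with at least 20 UMIs in male OPC-like cells, as stated at the end. *Bmp7* (0.934-fold, 0.685 to 1.28), *Bmpr1a* (1.20-fold, 0.969 to 1.5), *Bmpr2* (1.01-fold, 0.867 to 1.18), *Id2* (1.07-fold, 0.676 to 1.70) and *Id4* (1.16-fold, 0.495 to 2.86) had intervals that included no difference. The 10 microglia markers summed to 183 CPM in control and 510 CPM in WMI OPC-like cells, and the 10 pre-OL markers to 1850 and 1992 CPM, with all markers of both lists detected in each library. The list for any neuron, also detected in full, summed to 23206 and 20857 CPM, and the OPC list itself to 15797 and 16643 CPM. The astrocyte list, detected in full as well, summed to 4180 and 3512 CPM. In the larger OPC-like cluster (304 control and 468 WMI cells), *Gfap* stood at 1.24 and 35.1 CPM (2 and 77 UMIs). *A2m* was at 0.62 and 5.93 CPM there. The astrocyte markers *Aqp4* and *Slc1a3* stood there at 16.1 and 28.3 CPM and at 243 and 229 CPM. The pre-OL markers *Enpp6* and *Bcas1* stood there at 11.2 and 52.5 CPM and at 360 and 413 CPM. The part of the other lists and genes in these values was not tested.

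From OPC-like to pre-OL-like cells, the members measured in both libraries were *Bmp4*, *Bmp7*, *Bmpr1a*, *Bmpr1b*, *Bmpr2* and *Id2*. Of these, 1 was at least 1.5-fold higher in both libraries (*Bmp4*) and 2 were lower (*Bmp7* and *Id2*). Among all 10370 genes measured in both libraries, 8.34% were higher and 11.7% lower. *Id2*, which is known to hold back OL maturation, went from 19.6 to 11.9 CPM in control and from 20.8 to 13.1 CPM in WMI, and each interval of that ratio reached 0 on the log2 scale (-1.84 to 0.30 and -1.38 to 0.01). The receptors differed less between the stages, with log2 ratios between -0.44 and 0.12. From pre-OL-like to mature OL-like cells, *Bmp4*, *Bmpr1a*, *Bmpr1b*, *Bmpr2* and *Id2* were measured in both libraries. Of these, *Bmp4* alone was lower in both and none was higher in both, where 18.2% of 8378 genes were lower and 10.6% higher.

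The other classes gave a few differences of their own. Of 10 measured genes in excitatory neuron-like cells 1 was higher (*Bmp4*) and 1 lower (*Id1*), against 6.41% and 14.2% of all genes, and of 6 in fibroblast-like cells 1 was higher (*Bmp4*) and 1 lower (*Bmpr1b*), against 17.9% and 11.6%. Other neuron-like cells, a class of neurons with no subtype name, had 4 of 7 higher (*Bmp4*, *Bmpr1b*, *Id3* and *Id4*) and 1 lower (*Id2*), against 14.3% and 10.2%. That class pooled 3 clusters of unlike make-up (139 control and 561 WMI cells, 117 and 112, and 6 and 25). In mature OL-like cells 1 of 3 was higher (*Bmpr1a*) and 1 lower (*Bmpr1b*), against 11.5% and 18.1%, in inhibitory neuron-like cells 1 of 6 was higher (*Bmp4*) and 0 lower, against 10.6% and 7.78%, and in neuroblast-like cells 0 of 4 passed 1.5-fold, against 14.9% and 9.86%. In microglia-like cells 3 of 7 measured genes were higher in WMI and 0 lower, against 20.0% and 11.4% of all genes; beside *Bmp4* these were *Id3* (3 and 27 UMIs; 3.17-fold, 0.975 to 16.3) and *Id4* (4 and 30 UMIs; 2.64-fold, 0.931 to 10.3). At a resolution of 1.6 the clusters named microglia-like held 409 control and 654 WMI cells, 18 and 493 (with *Gpnmb* and *Plin2* among its leading genes), 2 and 254, and 11 and 30, and the 3 genes were not compared within them. In layer 6 excitatory neuron-like cells *Bmpr1b* was at 31.6 CPM (174 UMIs) in control and 68.2 CPM (234 UMIs) in WMI, a 2.16-fold difference (1.77 to 2.64), while in upper-layer neurons it was at 27.8 and 25.1 CPM (0.905-fold, 0.747 to 1.09). The layer 6 class joined a cluster of 426 control and 150 WMI cells with one of 138 and 186, and the difference was not measured within each. In fibroblast-like cells *Bmpr1b* was at 91.9 and 48.1 CPM (28 and 20 UMIs; 0.523-fold, 0.279 to 0.962) and *Bmp4* at 46.0 and 101 CPM (2.20-fold, 1.18 to 4.36). Over all excitatory neuron-like cells *Id1* was 0.578-fold (0.291 to 1.08) and *Id3* 0.684-fold (0.502 to 0.922) as high in WMI. A pair of excitatory clusters came to at least 90% from the control library (2330 control and 207 WMI cells, 1169 and 34 cells), and without them the log2 ratio was 0.01 for *Id1* and 0.35 for *Id3*.

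Other genes of the pathway were given by role from a list of 62, none of which was used for clustering. In astrocyte-like cells 36 were measured, 10 were higher in WMI and 2 lower, with a median log2 ratio of 0.33, where 18.9% of all genes were higher, 8.24% lower and the median was 0.12. By role, 2 of 3 other ligands (*Bmp6* and *Gdf11*), 2 of 4 Smads (*Smad5* and *Smad9*), 1 of 6 inhibitory Smads and their partners (*Smad6*), 3 of 7 targets (*Smad6* again, *Msx1* and *Atoh8*) and 2 of 5 bHLH partners (*Tcf3* and *Olig1*) were higher. Of 8 secreted antagonists *Bmper* was higher and *Chrdl1* lower, and of the targets *Hes1* was lower. None of 3 other receptors and 2 co-receptors passed 1.5-fold.

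The largest of these differences in astrocyte-like cells was that of *Atoh8*, a bHLH factor and BMP target, at 3.58 CPM (9 UMIs) in control and 23.5 CPM (74 UMIs) in WMI, 6.57-fold (3.28 to 14.9), among genes with at least 50 UMIs. *Bmp6*, a ligand, stood at 5.57 and 27.3 CPM (4.91-fold, 2.77 to 9.36) and *Smad6*, an inhibitory Smad that BMP signals induce, at 7.96 and 23.2 CPM (2.92-fold, 1.76 to 5.05). *Chrdl1*, a secreted BMP antagonist of astrocytes, stood at 83.5 CPM (210 UMIs) and 30.5 CPM (96 UMIs), 0.365-fold (0.284 to 0.467). *Hes1*, a repressor better known as a Notch target, stood at 33.8 and 18.1 CPM (0.536-fold, 0.376 to 0.759). *Gdf11* was 1.87-fold (1.14 to 3.15) and the E protein gene *Tcf3* 1.67-fold (1.15 to 2.47) as high in WMI. All these ratios of pathway genes are over cells of both sexes and over both astrocyte-like clusters, whose shares differed between the libraries. They were not measured within each cluster or in male cells alone.

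**Figure D5:**
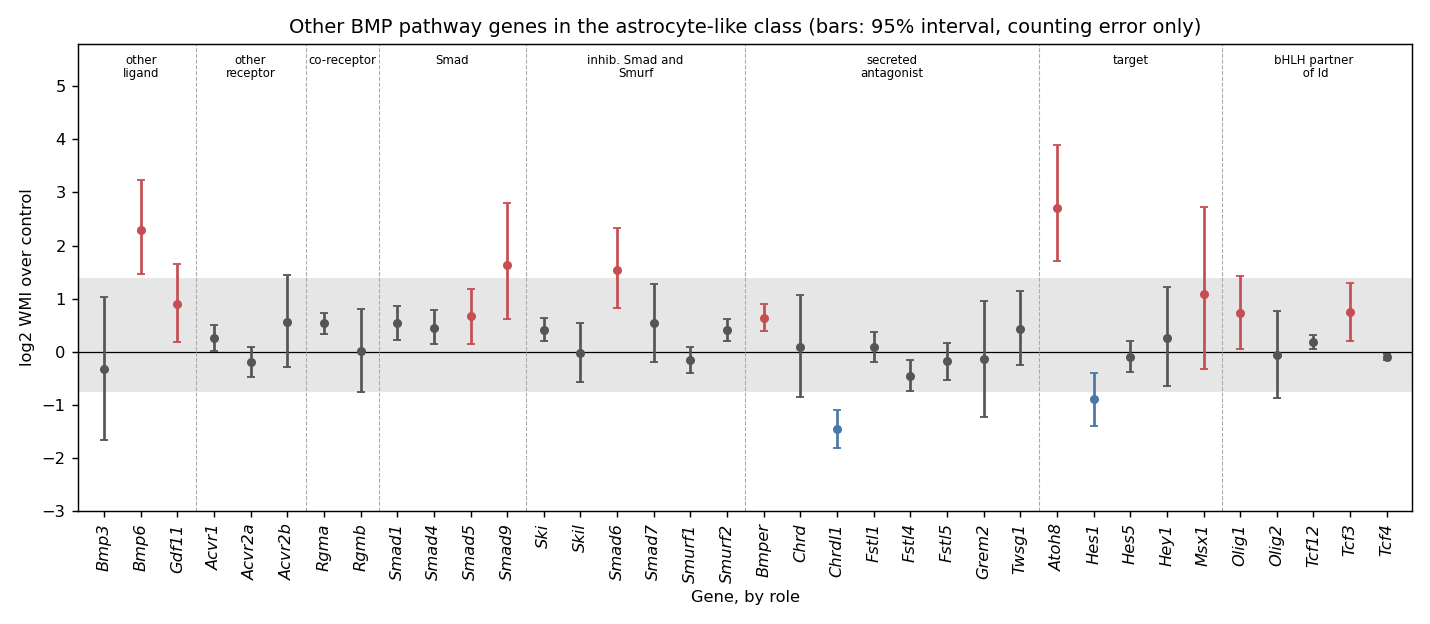
log2 ratio of WMI over control in astrocyte-like cells for the 36 other BMP pathway genes with at least 20 UMIs, grouped by role, with bars for 95% counting intervals and a grey band from the 5th to the 95th percentile of all genes. Red points are at least 1.5-fold higher in WMI (10 genes) and blue points lower (*Chrdl1* and *Hes1*).

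In OPC-like cells 30 of the 62 genes were measured, 4 were higher in WMI and 0 lower, against 12% and 7.34% of all genes. These were *Gdf11* and the bHLH genes *Tcf3*, *Olig1* and *Olig2*; *Olig1*, an OL lineage factor, stood at 32.8 CPM (57 UMIs) and 71.2 CPM (171 UMIs), 2.17-fold (1.6 to 2.99). In pre-OL-like cells 25 were measured, 3 were higher (*Smad1*, *Fstl1* and *Twsg1*) and 3 lower (*Smad7*, *Smurf1* and *Bmper*), against 14.4% and 9.40% of all genes. *Smad7*, an inhibitory Smad, stood at 69.4 and 37.4 CPM (0.540-fold, 0.386 to 0.758), and *Smurf1*, a ubiquitin ligase that removes Smads and receptors, at 190 and 105 CPM (0.553-fold, 0.453 to 0.676). The ratios in both classes are over cells of both sexes. Those of pre-OL-like cells are also over both pre-OL-like clusters (100 control and 331 WMI cells, 54 and 111), whose shares differed between the libraries. The pathway genes were not measured within each cluster or in male cells alone.

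Likeness of pattern was measured by Pearson's r of log2(CPM + 10) over 32 points, 16 classes in 2 libraries, among 12297 genes with at least 500 UMIs. The points share libraries and depth, and r is given as a description. *Bmp4* was most like *Arhgap24* (0.90), *BC005561* (0.90) and *Mpzl1* (0.89), and *Bmp7* most like *Prrx1* (0.90), *Phldb2* (0.89) and *Eya1* (0.88). *Bmpr1a* was most like *Slc1a3*, the astrocyte glutamate transporter (0.93), *Ttc23* (0.91) and *Phkb* (0.91), and *Bmpr1b* most like *AC110206.1* (0.86), *Cpe* (0.85) and the astrocyte gene *Aldh1l1* (0.84). *Bmpr2* was most like *Irf2bp2* (0.88), *Kansl1* (0.88) and *Gm7240* (0.87). *Id4* was most like *Prdm16* (0.96), *Slc25a21* (0.93) and *Pax6* (0.91), and *Id2* most like *Cldn10* (0.83), *Ntsr2* (0.83) and *Pla2g7* (0.82). *Id3* was most like 2 genes that share the symbol *Gm5089* (0.96 and 0.94) and *Slc7a11* (0.93), and *Id1* most like 1 of them (0.90), *Mid1* (0.90) and *Ttc23* (0.89). *Bmp2*, a sparse gene, was most like *Fam174b* (0.78), *Klhdc8b* (0.72) and *Gm20503* (0.72). Among the members themselves, *Bmpr1a* and *Id3* were the most alike (0.89), then *Id1* and *Id3* (0.87) and *Bmpr1a* and *Id1* (0.86).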

How the data were processed

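Single cells of 1 control and 1 WMI cortex library were analysed from the UMI counts that the authors deposited per gene and barcode, not normalized, made by Cell Ranger 6.1.1 per the file headers. The labels name Seurat and the build mm9, whereas all 55450 gene identifiers were those of GENCODE M21 (GRCm38), which gave the positions. A barcode was kept with at least 1000 UMIs, at least 500 genes and at most 10% mitochondrial UMIs, which removed 748 in control and 241 in WMI. Predicted doublets (785 and 542), ranked by the share of simulated doublets among their nearest neighbours and cut at 0.8% per 1000 barcodes, were removed too. Clusters came from Seurat 5.3.0 (R 4.3.3; 2000 integration features, 30 dimensions, resolution 0.8), with the BMP pathway, cell-cycle, *Xist*, *Tsix* and Y-linked genes kept out of the features. A cluster was named from marker lists.

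CPM were computed from summed UMIs with exact Poisson intervals, and ratios with exact conditional binomial intervals (Python 3.11.15, scipy 1.17.1). The limit for a count of 0 is 3 counts. PCR copies are removed by UMIs, yet intervals cover counting error only. Shares are the expected share of cells with a UMI when each cell is thinned to 1000 UMIs, from hypergeometric probabilities, with Clopper-Pearson intervals. With 1 library per group no test was made, and a 1.5-fold difference with at least 20 UMIs over both libraries was the rule of size. The intervals of the ratios were tested on simulated Poisson counts with known fold changes, for OPC-like, pre-OL-like and astrocyte-like cells. Those counts held counting error only, and the other steps were not tested this way.

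The members, gene lists and rules were chosen with earlier results of these data known. All members are named. Of the other pathway genes past 1.5-fold, values are given for the 10 genes with the largest difference and at least 50 UMIs, where ranking by size was set after the values were seen, as was the choice to describe the clusters of resolution 1.6. 1 gene of the pathway list is not reported here. For likeness, the 3 most alike genes per member are given. Alternatives changed the scaling, weights, doublets, cell filters, resolution, 1-library clusters, sex of cells, UMI minimum, fold and thinning.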

Additional observations from a re-analysis of the deposited data

Results flagged for a closer look

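The ratio of *Bmpr1b* between WMI and control went in opposite directions in different classes. Its log2 ratio was 0.72 in OPC-like, 0.67 in astrocyte-like and 0.71 in other neuron-like cells, and -0.93 in fibroblast-like cells, where it rested on 28 control and 20 WMI UMIs. In male cells alone it was 0.05 in OPC-like cells, with no interval computed. Over cells of both sexes in the smaller astrocyte-like cluster it was 0.18 (-0.05 to 0.42). The other neuron-like class pooled clusters of unlike make-up (139 control and 561 WMI cells, 117 and 112, and 6 and 25). These differences between classes were not tested, since each class has 1 library per group.

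*Bmpr2* was also found in the unnamed cells, which no comparison used, at 194 CPM in WMI (457 UMIs) and 98.5 CPM in control (21 UMIs). Of the genes measured there, 25.0% had a higher ratio. An unnamed cluster led by mitochondrial genes held 56 control and 464 WMI cells, and the other, led by *Spp1*, held 5 and 615. The libraries thus gave unlike mixtures of cells.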

How the results depend on the processing

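No paired analysis was possible because each group has 1 library. For the same reason no library could be left out, and the depth limits the sparse genes most (*Bmp2*, *Id1* and, in OPC-like cells, *Id3*). Of 678 single ratios recomputed over 66 pairs of a gene and a class, 653 moved by less than their counting interval, 23 moved by more and 2 that had been at least 1.5-fold different changed sign: *Id1* in excitatory neuron-like cells had a log2 ratio of 0.014 without clusters of 1 library, and *Bmp4* in astrocyte-like cells one of -0.044 in male cells alone. Some ratios under 1.5-fold changed sign as well, such as *Id3* in excitatory neuron-like cells, at 0.35 without clusters of 1 library. Some of the 653 ratios could not move. Among the classes compared, leaving out clusters of 1 library changed the cells of the excitatory neuron-like class alone. Of 116 recomputed counts of genes, 101 stayed within 1.5 times. Shares over all genes were not computed at the other settings, so the counts below cannot be set against them. At 2-fold in place of 1.5-fold, 2 genes were higher in WMI in astrocyte-like cells, 1 in OPC-like and 0 in pre-OL-like cells, 0 were lower in astrocyte-like cells, and 1 was lower in pre-OL-like than in OPC-like cells. In male cells alone 1 gene was higher in WMI in OPC-like cells, and 1 was lower in pre-OL-like than in OPC-like cells. With predicted doublets kept, 3 genes were higher in WMI in pre-OL-like cells, 0 were lower in astrocyte-like cells, and 1 was lower in pre-OL-like than in OPC-like cells. In that setting a cluster led by *Gfap* and *A2m* (115 control and 317 WMI cells) was unnamed. The astrocyte-like class then held 467 control and 407 WMI cells without it. With genes of any UMI number counted, 3 were higher in WMI in pre-OL-like and 1 lower in OPC-like cells. With the mean of each cell's own CPM, 0 genes were lower in WMI in astrocyte-like cells. With both astrocyte-like clusters given equal weight, an alternative chosen after seeing the data, 2 genes were higher there. With cells thinned to 500 UMIs, 1 pair of a gene and a class (*Bmpr1b* in astrocyte-like cells) had shares with intervals apart, in place of 3. Except for the effect of the construction itself (a larger fold, fewer cells, fewer UMIs or more genes counted), the cause was not tested.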
